A study of Mus musculus with 15 samples.

Results

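The comparison described here is that of T helper 2 (Th2) cells with and without a deletion of Asb2, in cells that were not stimulated again before RNA was taken. It holds 6 of the 15 RNA sequencing libraries of the study, 3 from conditional knockout cells and 3 from control cells, chosen by the genotype and treatment in their labels. Of 56748 genes in the table of estimated counts, 15619 had enough counts to be tested and are the genes described below. The other 9 libraries, 4 knockout and 5 control, came from stimulated cells and are used only for the estimate of spread and for comparison.

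The control cells came from female Asb2fl/fl mice, which carry floxed but intact Asb2 alleles, although the sample titles call them WT. The knockout cells, called cKO, came from female VEC-Cre;Asb2fl/fl mice. In these mice the Cre recombinase is driven by the promoter of VE-cadherin, a gene active in the endothelium and in the embryonic precursors of blood cells, so the deletion is not limited to T cells and depends on recombination in each precursor. Both groups therefore share the floxed alleles, and no group without them was part of the comparison. In both, naive splenic CD4+ T cells were cultured on plate-bound anti-CD3ε with anti-CD28, anti-IFNγ, IL-2 and IL-4 for 3 days, then for 3 days with IL-2 and IL-4 alone. The stimulated libraries were given anti-CD3ε and anti-CD28 from day 5 for 24 h. Nothing in the labels ties a library to its own animal or culture, so each p-value reflects only how these libraries vary, which may be technical.

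ASB2 is the substrate-recognition subunit of a ubiquitin ligase built on Cullin 5 with the elongins B and C and the RING protein RNF7. It marks proteins for the proteasome, the actin-crosslinking filamins being its best known substrates, and Asb2 is known to be expressed in Th2 cells. A change in such a ligase acts first on proteins, which RNA libraries do not measure. Th2 cells make interleukins 4, 5 and 13 once their T cell receptor is engaged, under the transcription factor GATA3.

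The 6 libraries held 18.4 to 23.5 M estimated counts each, of which 4.36 to 5.15% came from mitochondrially encoded genes. All 10 markers of CD4 T cells were above 1 CPM (reads counted for a gene per fixed total of reads, on TMM-scaled library sizes), with summed levels of 2860 to 3220 CPM in control and 2900 to 3010 CPM in cKO. Most of these markers are shared by T cells in general, so the sum bears out T cells rather than CD4 cells alone. Cd4 itself read 342 to 437 CPM and Cd8a 1.76 to 13.4 CPM. The summed level overlapped between the genotypes. Libraries of one genotype did not form a group of their own. The first principal component, 30.3% of the variance, had control library 3 at 42.7 and cKO library 2 at 15.2 on one side and the remaining libraries at -1.29 to -24.4 on the other. This split crosses the genotypes, and several of the values it touches below are also given without control library 3 or cKO library 2. Those of the granzyme and other cytotoxic genes are not.

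Asb2 itself was lower in every cKO library than in every control library, but its RNA was far from absent. The 3 control libraries had 34.7, 25.6 and 49.7 CPM and the 3 cKO libraries 12.7, 22.7 and 22.1 CPM. The groups did not overlap, though the lowest control library and the highest cKO library were close. The means were 36.7 ± 12.2 CPM (SD, n = 3) in control and 19.2 ± 5.62 CPM (SD, n = 3) in cKO, so 52.2% of the control level was left. The log2 fold change of cKO over control was -0.94 ± 0.21 (SE), with a 95% interval of -1.38 to -0.50. Its unadjusted p of 0.000326 in edgeR's quasi-likelihood test was the 3rd smallest of all genes, and its adjusted p over all genes was 1. Both this p and the interval used a spread from all 15 libraries, and Asb2 was more even in the stimulated ones. Fitted to the 6 non-stimulated libraries alone, edgeR gave an estimate of -0.936 and an unadjusted p of 0.0209. In DESeq2 the adjusted p of Asb2 was 0.0526. A two-sided exact permutation test over the 6 libraries gave p = 0.1, the smallest that 3 against 3 libraries allow.

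After stimulation the reduction of Asb2 was deeper and far more even. The cKO libraries ran from 9.36 to 9.59 CPM there and the control libraries from 31.2 to 38.0 CPM, which left 28.3% of the control level and gave a log2 fold change of -1.82 (edgeR adjusted p = 0.000337). The mean control level was 33.5 ± 2.72 CPM (SD, n = 5) with stimulation, close to that without it, and it was the non-stimulated cKO libraries that stood higher than the stimulated ones. The difference between the 2 genotype effects was 0.88 on the log2 scale, with an unadjusted edgeR p of 0.00517 and an adjusted p of 0.997. Cells that kept the gene and a lower level per cell cannot be told apart in bulk RNA, here or in any result below. The table gives 1 value per gene, so transcripts without the deleted exons count towards it.

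**Figure D1:**
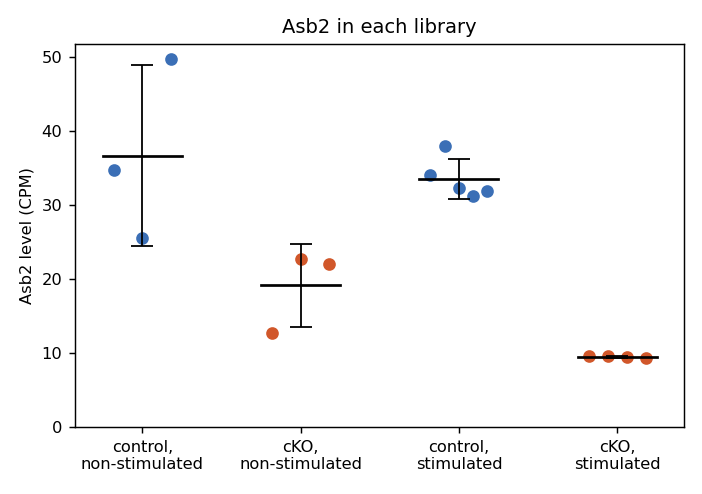
Asb2 level in CPM (vertical axis) in each of the 15 libraries, by genotype and stimulation; points are libraries, the line is the group mean and the error bar the SD. Non-stimulated cKO libraries lie at 12.7 to 22.7 CPM, below the control libraries at 25.6 to 49.7 CPM but above the stimulated cKO libraries at 9.36 to 9.59 CPM.

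Across all genes, no gene passed the threshold of an adjusted p under 0.05 in edgeR's quasi-likelihood test, which is 0 of 15619 tested (0%). The smallest adjusted p, 0.428, was that of the unnamed gene model Gm42791. At an unadjusted p under 0.05 there were 402 genes (2.57%), 216 with the higher estimate in cKO (1.38%) and 186 with the lower (1.19%). Their share was thus below the 0.05 of the threshold itself. An unadjusted p under 0.01 was reached by 69 genes (0.442%), 37 with the higher estimate in cKO (0.237%) and 32 with the lower (0.205%). On the same genes DESeq2 called 4 and limma on log2(TPM + 1) called 3, with no gene in common.

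The estimates were small and, for expressed genes, tightly bounded. The median standard error of a log2 fold change was 0.176 and the median absolute estimate was 0.114. For 12186 genes (78%) the whole 95% interval lay inside a 2-fold difference either way, and for 8883 genes (56.9%) it lay inside 1.5-fold. This depended on the level of the gene. Of genes between 10 and 100 CPM 97.7% were bounded within 2-fold and 87.8% within 1.5-fold, and above 100 CPM these shares were 98.3% and 91.7%. Between 1 and 10 CPM they were 75.5% and 25.6%, while under 1 CPM only 9.68% of genes were bounded within 2-fold and none of the 2345 within 1.5-fold. Intervals were thus widest for rare transcripts.

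Of 8687 genes with a mean of at least 10 CPM, 28 had an estimate past 1.5-fold, 7 higher and 21 lower in cKO. In 9 of the 28 the genotypes did not overlap, against 7.86% of all genes. Between 10 and 100 CPM 406 of 6573 genes did not overlap, and above 100 CPM 137 of 2114. The 28 were chosen by the size of the same difference, so no conclusion is drawn from their share. Asb2, Nav1 and Itsn1 were among the 9 without overlap. The lowest estimates of the 28 were those of the granzyme genes Gzmd at -1.07 and Gzmg at -1.02 and of Avil at -1.02, below Asb2. In each of these genes the groups overlapped and control library 3 was highest.

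**Figure D2:**
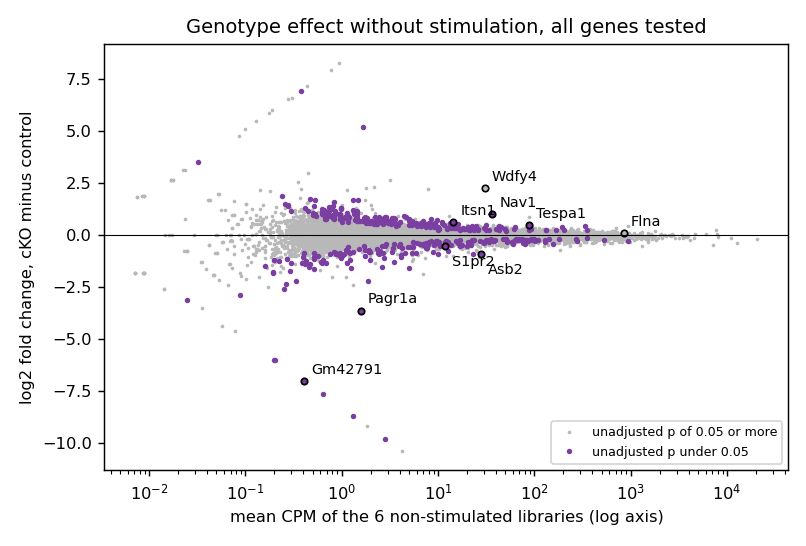
Log2 fold change of cKO over control without stimulation (vertical axis) against the mean CPM of the 6 libraries (horizontal, log axis) for the genes tested; purple points are the 402 genes with an unadjusted p under 0.05. Above 10 CPM nearly all points lie close to 0, and Asb2 at -0.94, Nav1 at 1.00 and Wdfy4 at 2.25 stand outside the band. Unlabelled points for Gzmd at -1.07, Gzmg at -1.02 and Avil at -1.02 lie lower than Asb2.

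The libraries of one genotype differed from each other about as much as from those of the other. This was measured over the 13274 tested genes with a mean of at least 1 CPM without stimulation. The SD of the log2 difference was 0.382 to 0.491 in the 6 pairs of libraries of the same genotype. It was 0.386 to 0.529 in the 9 pairs of different genotypes, with medians of 0.4325 and 0.400. Pearson correlations of log2 CPM across the same genes were 0.9786 to 0.9868 and 0.9751 to 0.9861. The 2 most alike libraries of different genotype were control 3 and cKO 2, at r = 0.9861, and the least alike of all pairs were control 3 and cKO 1, at 0.9751.

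Genes whose 3 cKO libraries all lay on one side of all 3 control libraries numbered 1228 (7.86%), 683 with cKO higher (4.37%) and 545 with cKO lower (3.49%). Of the 20 ways to divide 6 libraries into 3 and 3, a share of 0.1 separates the values of a gene fully. The count by itself thus does not show a genotype effect. On the TPM values, which are scaled within each library, 17.2% of genes did not overlap, 2547 with cKO higher and 135 with cKO lower. On that scale the median of all genes was itself shifted towards cKO, by up to 0.149 on the log2 scale, against -0.00475 in CPM. The predominance of higher genes thus depended on the scaling.

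By the rule for named genes, 7 genes had higher estimates in cKO at an unadjusted p under 0.01, at least 5 CPM and no overlap. Each had an edgeR adjusted p of 1. The largest was Nav1, which encodes a neuron navigator protein that binds the growing ends of microtubules. Its libraries read 21.3, 26.0 and 25.5 CPM in control and 34.1, 35.3 and 76.5 CPM in cKO. All cKO libraries were above all control libraries, with cKO library 3 far above the rest. The log2 fold change was 1.00 (95% interval 0.35 to 1.66), and 0.515 without cKO library 3. In edgeR on the 6 non-stimulated libraries alone its unadjusted p was 0.0271, above the 0.01 of the rule. After stimulation Nav1 was at 6.24 CPM in control and 6.41 CPM in cKO, with an estimate of 0.05.

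Itsn1, which encodes the endocytic scaffold intersectin, read 10.6, 11.7 and 11.6 CPM in control and 14.9, 17 and 19.8 CPM in cKO. The control libraries were nearly equal and every cKO library was higher, with a log2 fold change of 0.61 (0.26 to 0.95). Tespa1, whose product takes part in T cell receptor signalling in thymocytes, read 80.6, 78.3 and 63.6 CPM against 102.6, 89.2 and 112.0 CPM, an estimate of 0.45 (0.19 to 0.71). Spaca6, known for its role in sperm and egg fusion, read 4.12, 4.55 and 3.59 CPM against 5.86, 7.13 and 6.67 CPM, an estimate of 0.68. The estimates of Spaca6 and Itsn1 had the opposite sign after stimulation, at -0.47 and -0.21, while Tespa1 was at -0.01 there.

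The remaining 3 had small differences over tight libraries. E4f1, which encodes a regulator of p53, had 21.1 ± 0.39 CPM (SD, n = 3) in control and 26.4 ± 1.15 CPM in cKO, a log2 fold change of 0.32. Sfswap, a splicing regulator, had 80.1 ± 3.22 and 95.2 ± 4.63 CPM, a log2 fold change of 0.25. Tmem181a, a membrane protein gene with a near-identical copy between which reads may be split, had 23.5 ± 1.01 and 28.8 ± 0.92 CPM, a log2 fold change of 0.29. In these genes the spread between libraries, rather than the size of the estimate, set the place in the ranking.

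On the lower side 14 genes met the same rule, and the 10 with the largest estimates included Asb2. S1pr2 encodes a receptor for sphingosine 1-phosphate that restrains cell migration. Its control libraries read 13.97, 12.5 and 15.1 CPM and its cKO libraries 9.62, 9.98 and 8.98 CPM. The 3 cKO values were within 1 CPM of each other and clearly below the controls, with a log2 fold change of -0.54 (-0.81 to -0.27) and an edgeR adjusted p of 1. After stimulation its estimate was 0.18, and the difference between the effects, -0.72, had an unadjusted p of 0.000343 and an adjusted p of 0.997.

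Usp2, which encodes a deubiquitinating enzyme, read 10.5, 7.29 and 9.86 CPM in control and 6.31, 6.12 and 5.31 CPM in cKO. The log2 fold change was -0.64 (-0.97 to -0.31), against -0.03 after stimulation. Zfp993, a zinc finger gene with closely similar copies, read 5.30, 5.43 and 5.58 CPM against 3.11, 2.69 and 2.68 CPM, a log2 fold change of -0.94. Its libraries were even within each group, but reads may be divided among its copies.

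Myo7a, which encodes the unconventional myosin VIIa known from sensory hair cells, differed in the same direction in both conditions. It read 5.83, 5.94 and 5.45 CPM in control and 4.33, 3.54 and 3.81 CPM in cKO, an estimate of -0.56 (-0.92 to -0.20). After stimulation its estimate was -0.74. A gene model without a functional name, A630091E08Rik, also had lower levels in all cKO libraries of both conditions, with estimates of -0.32 and -0.76. Its non-stimulated libraries read 7.28, 7.50 and 8.09 CPM in control and 5.86, 6.39 and 6.08 CPM in cKO. None of these estimates passed the adjusted threshold in edgeR.

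The other 5 lower genes lay between -0.42 and -0.57. Sh3bp5, which encodes a mitochondrial binding partner of the kinase JNK, read 16.9, 16.0 and 15.3 CPM in control and 10.7, 13.7 and 9.94 CPM in cKO. Itpkc, an inositol trisphosphate kinase that limits calcium signals, read 8.89, 7.24 and 9.13 CPM against 6.57, 5.97 and 6.31 CPM. Ncoa4, the receptor that carries ferritin to autophagy, read 77.2, 84.4 and 111.5 CPM against 63.7, 75.8 and 65.0 CPM, so that the lowest control and the highest cKO library nearly met. Its pseudogene Ncoa4-ps went the other way, at 7.76, 0.465 and 0.389 CPM in control and 14.6, 6.91 and 17.3 CPM in cKO. The log2 fold change of Ncoa4-ps was 2.21, with an unadjusted edgeR p of 0.127. Reads may be divided between Ncoa4 and this copy, but whether they were was not tested. Zbtb12, a zinc finger gene, and Mrm1, a methyltransferase of mitochondrial ribosomal RNA, had estimates of -0.57 and -0.49.

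**Figure D3:**
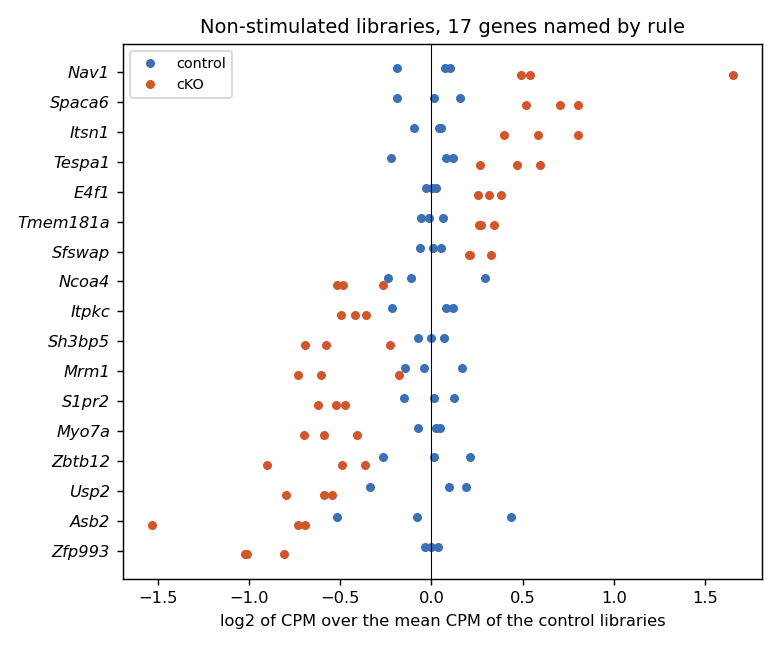
Level of the 17 genes named by rule in each non-stimulated library, as the log2 of its CPM over the mean CPM of the control libraries (horizontal axis); blue points are the 3 control and orange points the 3 cKO libraries of each gene. The genes were chosen because these points do not overlap; Nav1, Ncoa4 and Asb2 show 1 library far from the other two of its group.

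The genes of the ligase itself and of its reported substrates showed no called difference, and most were tightly bounded. Of 14 listed genes 13 were tested, 6 with higher and 7 with lower estimates, none at an unadjusted p under 0.05 (0%, against 2.57% of all genes), and 11 had intervals inside 1.5-fold. The median log2 fold change was -0.07, against -0.00475 for all genes, and it was 0.126 on log2(TPM + 0.1). Relative to the mean of the 6 libraries the median level of the list was 0.0262, 0.0162 and 0.00942 on the log2 scale in the control libraries and -0.0259, -0.0374 and -0.0135 in the cKO libraries. These medians did not overlap, but they lay within a few percent of each other. The lowest estimates were those of Arih2, the partner ligase of Cullin 5, at -0.24 (-0.53 to 0.05), and Rnf7 at -0.20 (-0.44 to 0.05). Cul5 was at -0.14 (-0.38 to 0.11). Arih2 read 74.0, 62.9 and 88.8 CPM in control and 56.2, 74.4 and 61.0 CPM in cKO, with overlap.

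Flna, which encodes filamin A, read 770, 989 and 690 CPM in control and 897, 777 and 953 CPM in cKO. The groups were interleaved, and the log2 fold change of 0.10 had an interval of -0.20 to 0.41. Without control library 3 the estimate for Flna was -0.0071, so its sign rested on that library. Flnc, for the muscle filamin C, was at 0.356 CPM or less in every non-stimulated library. The reported substrates Jak2, Jak3, Notch1 and Kmt2a had estimates between -0.10 and 0.06.

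Of 24 genes for filamin partners, actin and adhesion none reached an unadjusted p under 0.05, estimates ran from -0.14 (Pfn1, profilin) to 0.12, and 22 of the 24 intervals lay inside 1.5-fold. Wasf2, of the actin-nucleating WAVE complex, and Itgb1, the integrin beta 1 chain, were both at -0.11. No other Asb gene showed a called difference either. Asb13, another member of the substrate-recognition family, was the closest. It read 4.34, 4.60 and 4.54 CPM in control and 6.36, 5.81 and 6.35 CPM in cKO, with a log2 fold change of 0.46 (0.06 to 0.86) and an edgeR adjusted p of 1. Asb8 and Asb7 were at -0.11 and 0.10.

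The estimates of Th2 genes were mostly below 0. Of 19 tested genes 18 had lower estimates, with a median of -0.16 against -0.00475 for all genes, 0 were called and 1 had an unadjusted p under 0.05. That one was Il5, for interleukin 5, at 3.53, 2.38 and 4.37 CPM in control and 1.78, 2.32 and 1.54 CPM in cKO. The groups did not overlap, but cKO library 2 came within 0.1 CPM of control library 2, and the log2 fold change was -0.88 (-1.54 to -0.22) with an edgeR adjusted p of 1. Il5 reached a mean of 1035 CPM in stimulated control cells and 1089 CPM in stimulated cKO cells, so the values without stimulation are a small residue.

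Il4 read 10.3, 6.10 and 14.97 CPM in control and 6.21, 10.2 and 5.49 CPM in cKO, and Il13 read 26.8, 12.1 and 40.6 against 11.2, 27.5 and 17.4 CPM. For both interleukins control library 3 was highest and the groups overlapped, with estimates of -0.53 (-1.32 to 0.26) and -0.51 (-1.30 to 0.28). Without control library 3 these were -0.168 for Il4 and -0.0558 for Il13, and without cKO library 2 they were -0.848 and -0.89. Gata3 read 685, 674 and 745 CPM against 650, 735 and 545 CPM, an estimate of -0.12 (-0.37 to 0.12), which was 0.0251 on log2(TPM + 0.1). The Th2 median was -0.0460 without control library 3, with 6 of 19 estimates higher, and 0.0251 on log2(TPM + 0.1) with 11 of 19 higher.

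Genes of other T helper programs did not show a called difference. Estimates were lower for 10 of 13 Th1 genes and 8 of 10 regulatory T cell genes, with medians of -0.09 and -0.11 and 0 at an unadjusted p under 0.05. Runx3, a Th1 transcription factor, read 126, 130 and 183 CPM in control and 92.3, 135 and 133 CPM in cKO, an estimate of -0.29. Il12rb2, the interleukin 12 receptor chain, was at -0.52 and Ikzf2, for the regulatory T cell factor Helios, at -0.47. In all 3 control library 3 had the highest value, and without it the estimates were -0.0958 for Runx3, -0.0722 for Il12rb2 and -0.0957 for Ikzf2. The median of the Th1 genes was 0.152 without that library, with 10 of 13 estimates higher, and that of the regulatory T cell genes -0.0209. On log2(TPM + 0.1) both medians were above 0, at 0.104 and 0.0874. Among Th9 genes Etv5 was at -0.30 and Tgfbr2 at -0.13, and among follicular helper genes Pou2af1 was at 0.73 from a level of 1.12 to 5.60 CPM. The inhibitory receptor genes Lag3 and Cd200 were at -0.27 and -0.19.

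Genes induced by the T cell receptor had the lowest median of the larger lists, with 19 of 23 estimates lower and a median of -0.27. At an unadjusted p under 0.05 there were 4 lower genes, Egr3, Jun, Egr2 and Bhlhe40, and 1 higher, Spry1, which together are 5 of 23 against 2.57% of all genes, and 0 were called. Egr2 and Egr3 encode early growth response factors that follow receptor signals. Egr2 read 15.1, 8.84 and 24.4 CPM in control and 7.89, 13.7 and 6.58 CPM in cKO, an estimate of -0.79 (-1.45 to -0.14). Egr3 read 12.4, 10.0 and 14.7 CPM against 8.10, 10.4 and 7.26 CPM, an estimate of -0.53 (-0.89 to -0.17). Jun, of the AP-1 factor, read 14.9, 9.92 and 17.8 CPM against 9.06, 11.9 and 7.49 CPM, an estimate of -0.59. In each of these genes cKO library 2 lay above control library 2, and the groups overlapped. Without control library 3 the estimates were -0.357 for Egr2, -0.387 for Egr3 and -0.392 for Jun, and without cKO library 2 they were -1.17, -0.692 and -0.785.

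Genes of the ATF4 response, which supply amino acids under stress, had lower estimates in 15 of 15 with a median of -0.19, and genes of sterol synthesis higher ones in 18 of 18 with a median of 0.18. No member of either list reached an unadjusted p under 0.05 (0%, against 2.57% of all genes). Slc3a2, the heavy chain of an amino acid transporter, read 240, 171 and 303 CPM in control and 147, 253 and 149 CPM in cKO, an estimate of -0.38 (-0.80 to 0.04). Idi1, an enzyme of the mevalonate route, read 77.2, 103.5 and 60.7 CPM against 127.5, 74.5 and 118.5 CPM, an estimate of 0.41 (-0.11 to 0.93). Lss, the lanosterol synthase, was at 0.33 (-0.04 to 0.69). All members of a list were read in the same 6 libraries, so their shared sign is not independent evidence per gene.

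**Figure D4:**
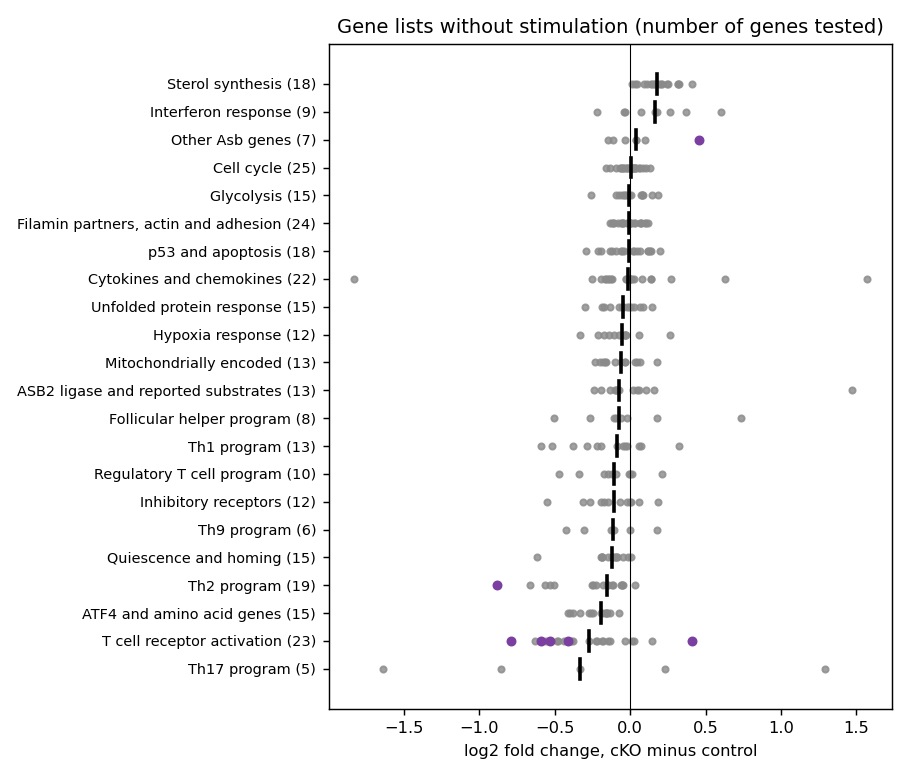
Log2 fold change of cKO over control without stimulation (horizontal axis) for the tested members of 22 gene lists; each point is a gene, purple where its unadjusted p is under 0.05, and the black bar is the median of the list. Medians lie between -0.34 (5 Th17 genes, most of them rare) and 0.18 (sterol synthesis), and no gene of any list was called.

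The level of these lists in single libraries showed how much 1 library decided. Relative to the mean of the 6 libraries, the median of the receptor-induced genes was -0.10, -0.18 and 0.65 in the control libraries and -0.43, 0.13 and -0.10 in the cKO libraries. For the ATF4 genes the values were 0.06, -0.19 and 0.41 against -0.31, 0.21 and -0.25, and for the sterol genes -0.13, 0.20 and -0.35 against 0.27, -0.22 and 0.22. In all 3 lists control library 3 stood at one end and cKO library 2 lay on its side of 0, so that the genotypes overlapped. Without control library 3 the median log2 fold change of the receptor-induced genes was 0.08, with 14 of 23 higher, that of the ATF4 genes -0.0435 and that of the sterol genes 0.07. Without cKO library 2 the medians were -0.40, -0.38 and 0.32. The size of each median, and for the receptor-induced genes its sign, rested on these libraries.

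**Figure D5:**
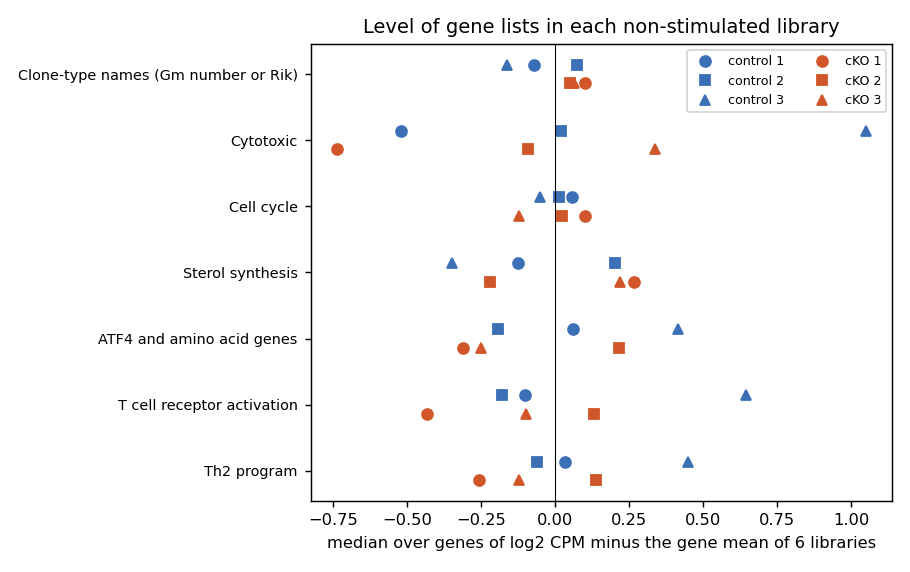
Median over the genes of a list of the log2 CPM minus the mean of that gene over the 6 non-stimulated libraries (horizontal axis), for 7 gene groups; colours give the genotype and marker shapes the library number. Control library 3 lies at an end for activation, ATF4, sterol, Th2 and cytotoxic genes, and blue and orange points overlap in every group.

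Lists without a clear lean were the cell cycle (13 of 25 estimates higher, median 0.00391, 24 intervals inside 1.5-fold), glycolysis (median -0.0057) and p53 and apoptosis (median -0.0106). Ccnd2, for cyclin D2, read 705, 693 and 826 CPM in control and 645, 684 and 662 CPM in cKO, an estimate of -0.16. Quiescence and homing genes had 14 of 15 lower estimates with a median of -0.12, among them Foxo1 at -0.19 and Klf4 at -0.62. Hypoxia genes had 10 of 12 lower estimates, led by Ero1a, an oxidase of the endoplasmic reticulum, at -0.33. Interferon response genes had 6 of 9 higher estimates. The unfolded protein response had 10 of 15 lower estimates, with Dnajb9 at -0.30 and Xbp1 at -0.19. Mitochondrially encoded genes had 9 of 13 lower estimates, among them mt-Co3, a subunit of cytochrome c oxidase, at -0.23. Of 22 tested cytokine and chemokine genes 0 had an unadjusted p under 0.05. Several of these leans changed sign under the alternative analyses. The median ran from -0.182 to 0.0534 for quiescence and homing and from -0.145 to 0.0845 for hypoxia. For the unfolded protein response it ran from -0.0905 to 0.107, and for mitochondrially encoded genes from -0.154 to 0.107. By library the median levels of these lists overlapped between the genotypes.

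The summed markers of every other cell type listed overlapped between the genotypes. The 9 cytotoxic markers summed to 1446, 1807 and 3026 CPM in control and 1236, 1908 and 3672 CPM in cKO, with the number 3 libraries highest in both. Most of that sum was Gzmb, for granzyme B, at 1200, 1470 and 2270 CPM in control and 1030, 1530 and 3110 CPM in cKO. Estimates were lower in cKO for 7 of the 8 tested cytotoxic markers, with a median of -0.454, and none had an unadjusted p under 0.05. Relative to the mean of the 6 libraries, the median level of these 8 was -0.522, 0.0198 and 1.05 in control. In cKO it was -0.738, -0.0924 and 0.337, so control library 3 stood highest. No estimate without that library is given for them. Trdc, of gamma-delta T cells, read 31.3, 45.1 and 49.4 CPM in control and 24.6, 33.8 and 32.3 CPM in cKO. The 5 NK cell markers summed to 33.7 to 118.0 CPM in control and 28.3 to 63.7 CPM in cKO, chiefly Eomes, and Cd8a with Cd8b1 to 7.39 to 27.8 and 10.6 to 18.4 CPM. Their part in the receptor-induced and Th1 values, which were also highest in control library 3, was not tested. B cell markers summed to 67.1 to 79.1 CPM against 58.1 to 87.3 CPM, and all 7 tested had higher estimates in cKO. Most of that sum was Ighm, at 62.8 to 77.4 CPM in control and 53.9 to 81.5 CPM in cKO. Overlap of the sum thus says little about the rarer members. The plasma cell sum was likewise chiefly Irf4, Xbp1 and Prdm1. Ighg1 of that list read 0.0535, 0.258 and 1.82 CPM in control and 5.14, 1.74 and 4.08 CPM in cKO. Its groups overlapped, with an estimate of 2.29 (-0.37 to 4.95). Pax5, the B cell factor, read 0.161, 0.155 and 0.346 CPM in control and 0.509, 0.686 and 0.771 CPM in cKO, at a depth where its interval spans -0.96 to 3.99. The defining myeloid and red cell genes C1qa, C1qb, Lyz2, S100a8, S100a9, Elane, Hba-a1 and Hbb-bs had 0 counts in all 6 libraries, as did Pf4 of platelets, Emcn and Cldn5 of endothelium and Col3a1 and Dcn of stroma. Other members of those lists were present, with overlap between the genotypes: Adgre1 at 7.26 to 17.2 CPM, Itgam at 1.23 to 3.93 CPM, Cxcr2 at 5.13 to 11.8 CPM, Pecam1 at 165 to 197 CPM, Col1a1 at 1.51 to 2.69 CPM and Itga2b at 0.346 to 1.00 CPM. For the markers at 0, a level too low to give a count at this depth cannot be told from absence.

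Genes called by another method but not by edgeR were mostly gene copies or rare transcripts read in a few libraries. Gm42791 had 1.07, 0.465 and 0.908 CPM in control, 50 counts in all, and 0 in every cKO library. It was called by DESeq2 and without the filter on low counts, and after stimulation its estimate was -0.82. Pagr1a, which has a near-identical copy, read 5.89, 2.27 and 0.606 CPM in control and 0.102, 0.158 and 0.408 CPM in cKO, and had an estimate of 0.38 after stimulation. Pgk1-rs7, a copy of the phosphoglycerate kinase gene, had counts in control libraries 1 and 2 alone among the 6 non-stimulated libraries, and Gm20236 in cKO library 3 alone. On log2(TPM + 1) the calls were BC147527, Gstp2 and Gm11342, all under 3 CPM. Gstp2, a glutathione transferase gene beside a near-identical copy, read 0.642, 0.827 and 0.389 CPM in control and 2.39, 1.00 and 2.54 CPM in cKO.

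Most genotype estimates without stimulation did not keep their sign in stimulated cells. Asb2 was the only gene called after stimulation (0.0064% of those tested). Of the 402 genes at an unadjusted p under 0.05 without stimulation, 135 (33.6%) had the same sign after it, and of all genes tested 42.2% did. These contrasts share no library. Across 13274 genes of at least 1 CPM the estimates of the 2 conditions were correlated at -0.208 (Pearson) and -0.216 (Spearman), as a description across genes, which are not independent replicates. In the test of the difference between the effects 0 genes were called by edgeR (0%), 605 had an unadjusted p under 0.05 (3.87%), and DESeq2 and limma on log2(TPM + 1) called 2 each. Among the 17 genes named by rule for size, S1pr2 at -0.72 and Spaca6 at 1.15 had the smallest unadjusted p for this difference, both with an adjusted p of 0.997.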

How the data were processed

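Total RNA of mouse Th2 cells was sequenced in 15 libraries after depletion of ribosomal RNA with a stranded kit, per the labels' protocols. The deposited tables give an estimated count per gene, which the authors did not scale between libraries, and TPM values, which the authors scaled within each library and which keep no depth. The submitters' processing notes list STAR 2.7.9a, Salmon 1.10.1, cutadapt 3.4 and the genome build GRCm39; the role of each tool and the annotation release are not given in the sources used here. Of the estimated counts, 9.42% were not exactly whole, and all were rounded.

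Genes were kept by filterByExpr of edgeR 4.0.16 in R 4.3.3 (15619 of 56748, holding 99.91 to 99.92% of the counts of each non-stimulated library). Scaling used TMM (trimmed mean of M-values) factors, and a quasi-likelihood model with robust dispersion and 1 mean per group was fitted to all 15 libraries, so that the stimulated libraries share in the estimate of spread (biological coefficient of variation 15.4%). Tests were two-sided, p-values were adjusted by Benjamini-Hochberg over all genes tested, and calls were made at an adjusted p under 0.05. The same fit gave the standard error and 95% interval of each log2 fold change, and 71 genes with 0 counts in a group have none. CPM values are on the scaled library sizes, and each "estimate" is a log2 fold change of cKO over control. The script was tested on simulated data.

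The named genes are 8 chosen ones, the 3 members of each list with the smallest p, and up to 10 higher and 10 lower genes with the largest estimates among those with an unadjusted p under 0.01, no overlap between genotypes and a mean of 5 CPM or more in the higher one. Clone names, mitochondrial, small RNA and pseudogene names were left out of the higher and lower genes. Some genes that this rule takes are not reported here. Other named genes were chosen after their values were seen. The comparison, the 22 pathway lists and the 15 marker lists (430 genes, 355 tested) were chosen with earlier results of these data known. Alternatives were DESeq2 1.42.0, limma 3.58.1 (voom, or log2 TPM with 0.1 or 1 added), other filters and scalings, and leaving out each library. The tables' gene names were used. No genome of the files' build was used here, so positions are not given.

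Replicate numbers occur in both genotypes. The deviations of same-numbered libraries from their group means had correlations of 0.253, -0.261 and 0.0107 across genes, so the numbers were not taken as pairs.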

Additional observations from a re-analysis of the deposited data

How the results depend on the processing

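The count of called genes, 0, was also 0 under 14 of 18 alternatives. DESeq2 called 4 genes, limma on log2(TPM + 1) called 3, no filter on low counts gave 1, and leaving out 1 library gave 0 to 1, the 1 being Pagr1a without control library 3. The number of genes at an unadjusted p under 0.05 ran from 303 to 1085, the highest without control library 2, and was 739 without cKO library 2 and 774 with limma-voom. For the difference of the genotype effect between conditions DESeq2 called 2 genes and log2(TPM + 1) called 2, and the other 14 alternatives called 0. Asb2 was lower under all 18 alternatives, between -1.14 without control library 2 and -0.656 without control library 3, with adjusted p from 0.0526 to 1.

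The alternatives for the next values, precision and overlap, were added after the data were seen. The share of genes bounded within 2-fold was 43.4% without the filter, which adds rare genes, and 70.5 to 73.9% with 1 library left out. The share of genes without overlap was 17.2% on log2(TPM + 0.1) and 17.2% on log2(TPM + 1), and 14.4 to 24.5% with 1 library left out, where fewer libraries have to separate. Of 540 values of 30 named genes, 537 kept their direction and side of the threshold. None of these genes was called in the main fit. Those named by rule were chosen for groups that do not overlap, which leaving out 1 library can hardly reverse. The count was thus largely set by the choice of genes and is no measure of robustness. Gata3 had the opposite sign on TPM (0.0251 and 0.025), and Flna without control library 3 (-0.0071). With 1 library left out Flna ran from -0.0071 to 0.262. The causes of these shifts were not tested.

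With the replicate number as a block 0 genes were called, 404 had an unadjusted p under 0.05 and Asb2 was at -0.941. The block on the 6 non-stimulated libraries alone gave 0 calls, 372 such genes and -0.934 for Asb2. Not every library's deviation correlated best with that of its own number. Rare genes limit the depth: under 1 CPM, 9.68% of genes were bounded within 2-fold.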

Other observations

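A few genes were present in some libraries and nearly absent in others, across genotypes. Of 9160 tested genes that reached 10 CPM in any non-stimulated library, 18 varied at least 10-fold between libraries of the same genotype (with 0.1 CPM added). The largest estimate among genes with a mean above 10 CPM was that of Wdfy4, which encodes a protein needed for cross-presentation in dendritic cells. Wdfy4 read 27.7, 1.96 and 2.25 CPM in the non-stimulated control libraries and 59.0, 30.8 and 60.3 CPM in the cKO libraries, without overlap (log2 fold change 2.25, edgeR adjusted p = 1). The stimulated control libraries split in the same way, with 34.1 and 15.3 CPM in libraries 1 and 2 and 0.85, 0.613 and 0.289 CPM in libraries 3 to 5. The 4 stimulated cKO libraries read 16.3, 16.3, 21.1 and 32.9 CPM. All 5 libraries at or below 2.25 CPM were thus control libraries.

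The pseudogene Ncoa4-ps was low in the same 5 libraries. It read 7.76, 0.465 and 0.389 CPM in non-stimulated control and 14.6, 6.91 and 17.3 CPM in cKO, and 0.55, 0.335 and 0.231 CPM in stimulated control libraries 3 to 5. Near Wdfy4 in RefSeq gene order (assembly GRCm38.p6, used for order only), the adjacent tested gene Mapk8, for the kinase JNK1, read 17.3, 19.9 and 22.8 CPM in control and 10.1, 18.5 and 13.0 CPM in cKO. Its log2 fold change was -0.53, opposite to that of Wdfy4, and the groups overlapped. Of the 16 tested genes nearest to Wdfy4, 2 had an unadjusted p under 0.05, Mapk8 and Ncoa4 (2.57% of all genes tested did).

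Of the 16 tested genes nearest to Myo7a, 2 had an unadjusted p under 0.05 and 3 did not overlap (2.57% and 7.86% of all genes tested). Gm15506 was higher in cKO with and without stimulation, at 0.88 and 0.55, and Thap12, a zinc finger protein gene, was at 0.09 with and -0.34 without stimulation. Gm15506 read 4.28, 5.12 and 4.76 CPM in control and 6.52, 8.23 and 6.08 CPM in cKO. Of the 16 nearest to Asb2 none had an unadjusted p under 0.05, and their estimates ran from -0.162 to 0.456. Otub2, for a deubiquitinating enzyme, and Btbd7, next to Asb2 among the named genes tested, were at 0.06 and -0.03.

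Other genes were on or off in libraries of both genotypes. Zrsr1, an imprinted splicing factor gene, read 17.9 to 22.7 CPM in 5 non-stimulated libraries and 0 in cKO library 2. Gm5537 was at 0 in control library 2 and 13.6 to 18.1 CPM in the other 5. Rpl15-ps6 read 25.6 CPM in control library 3 and 24.2 CPM in cKO library 2, and 0.0509 to 0.31 CPM in the remaining 4.

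Gene models with clone-type names leaned to one side. The classes by name were chosen after the values were seen, so the counts below describe the lean and do not test it. Of 2923 such genes 105 (3.59%) had higher and 30 (1.03%) lower values in cKO at an unadjusted p under 0.05, against 109 and 144 of 12068 genes with ordinary names, and their median log2 fold change was 0.13. After stimulation their median was -0.11. By library their median level was -0.07, 0.07 and -0.16 in control and 0.10, 0.05 and 0.06 in cKO, so the genotypes overlapped. Small RNA, mitochondrial and histone genes had a median of -0.21 over 184 genes.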
